A study of Mus musculus with 8 samples.

Results

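The genes described are those of the mitochondrial ribosomal proteins, taken as the mouse symbols that start with Mrpl (large subunit) or Mrps (small subunit) followed by digits, with no pseudogenes. The rule found 78 such genes among 23146 named genes, 49 Mrpl and 29 Mrps, on 17 chromosomes. All 78 had counts in every library and all 78 passed the filter on low counts. RNA came from mouse embryonic epidermis of 2 ages, E15.5 and E17.5, the number being the days of embryonic development. Control embryos carried floxed Nir alleles, and knockout embryos carried floxed Nir together with Krt14-Cre, so the floxed allele was common to all 4 groups and Cre was stated only for the knockout. Krt14-Cre acts in keratinocytes of the basal layer and their descendants, so other cells of the sheet keep the gene. Each group had 2 libraries, and no label says whether these came from separate embryos or pools, so the p-values reflect how far the 2 libraries of a group differ, and that spread may be technical. Nir is the protein of Noc2l, a nucleolar factor that binds Trp53 and blocks histone acetylation.

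Mitochondria keep their own ribosomes, which translate the few membrane proteins of the respiratory chain that are encoded in mitochondrial DNA. Their RNA is mitochondrial, but all of their proteins are encoded in the nucleus, made in the cytosol and imported. Some descend from bacterial ribosomal proteins and others were gained in the mitochondrial lineage. Their genes are known for broad expression and for short promoters without a TATA box that bind NRF1, GABP (an ETS factor) or YY1. Skin keratinocytes express them too, and whether their level there differs from that in other skin cells was not tested.

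Promoters of 69 of the 78 genes were matched by symbol in RefSeq (GRCm38.p6), each window running from 250 bases before to 50 bases after the start of transcription. The windows of 4 genes that fell in the knockout at both stages are shown 5′ to 3′ on the gene's own strand, chosen after their values were seen to show a window with each of 3 motifs and a window with none. Capitals mark matches to the NRF1 core (GCATGCGC), the ETS core (CCGGAAG) or the YY1 motif (AANATGGCG), each searched on both strands. Mrpl36 lies at chr13:73330759-73331058 on the plus strand, Mrpl32 at chr13:14612988-14613287 on the minus strand, Mrps22 at chr9:98601630-98601929 on the minus strand, and Mrpl14 at chr17:45686099-45686398 on the plus strand.
Mrpl36: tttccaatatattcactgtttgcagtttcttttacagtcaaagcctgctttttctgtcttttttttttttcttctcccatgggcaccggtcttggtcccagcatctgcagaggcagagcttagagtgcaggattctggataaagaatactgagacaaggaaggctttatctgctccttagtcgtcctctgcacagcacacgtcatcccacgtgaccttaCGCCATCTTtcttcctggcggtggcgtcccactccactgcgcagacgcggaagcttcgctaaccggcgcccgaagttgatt
Mrpl32: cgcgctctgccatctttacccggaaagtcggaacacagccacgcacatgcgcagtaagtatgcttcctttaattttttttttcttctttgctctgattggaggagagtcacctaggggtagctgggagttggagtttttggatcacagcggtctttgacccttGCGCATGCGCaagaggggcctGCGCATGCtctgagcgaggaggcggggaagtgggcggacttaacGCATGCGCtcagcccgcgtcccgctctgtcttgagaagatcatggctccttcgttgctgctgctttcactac
Mrps22: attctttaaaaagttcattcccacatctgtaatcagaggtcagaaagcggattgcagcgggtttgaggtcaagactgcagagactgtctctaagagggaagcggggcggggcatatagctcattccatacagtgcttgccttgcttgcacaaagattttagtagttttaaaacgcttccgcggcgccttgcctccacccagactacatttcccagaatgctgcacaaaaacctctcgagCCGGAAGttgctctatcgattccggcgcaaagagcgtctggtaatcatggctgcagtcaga
Mrpl14: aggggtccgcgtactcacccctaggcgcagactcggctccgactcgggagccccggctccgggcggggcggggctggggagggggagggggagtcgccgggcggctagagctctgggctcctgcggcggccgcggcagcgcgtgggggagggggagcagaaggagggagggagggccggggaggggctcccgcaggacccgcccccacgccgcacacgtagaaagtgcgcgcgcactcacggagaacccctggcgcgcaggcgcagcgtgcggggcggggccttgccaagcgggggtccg
The Mrpl36 window held a reverse-strand YY1 match that began at position -31 from the start of transcription that RefSeq's window uses. That start lies inside the gene as GENCODE M21 draws it, downstream of its first base. The Mrpl32 window held the NRF1 core 4 times, at -87, -85, -66 and -22, and the first pair overlapped. The Mrps22 window held the ETS core at -11, and the Mrpl14 window held no match to any of the 3.

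The ETS core was present in 25 of the 69 windows (36.2%), against 1981 of 12752 windows of all genes tested and 9.12% of all 27025 RefSeq promoters. The YY1 motif was present in 11 (15.9%, against 4.43% and 2.51%), and the NRF1 core in 8 (11.6%, against 4.68% and 2.80%). At least 1 of these 3 motifs stood in 36 windows (52.2%, against 22.5% of the windows of all genes tested). The YY1 matches began upstream of the start only in Mrpl36 (-31) and Mrps11 (-108). In the other windows with that motif they began downstream of it, at positions from 9 (Mrpl27) to 37 (Mrps24). Positions in the windows of all genes were not counted. The TATA box (TATAAA, both strands) was in 4 windows (5.80%, against 8.41% and 14.2%). The median GC content was 58.3%, against a median of 60.0% for all genes tested, and the median number of CpG was 21 against 19. Of the 69, 10 of 23 windows of genes fallen at either stage held at least 1 of the 3 (43.5%), and so did 26 of 46 windows of genes fallen at neither (56.5%). The NRF1 core was in 1 of the 23 (4.35%) and 7 of the 46 (15.2%). For the ETS core these were 6 (26.1%) and 19 (41.3%), and for the YY1 motif 3 (13.0%) and 8 (17.4%). These differences were not tested. A match is a stretch of letters and says nothing of binding. Of the 78 genes, 23 (29.5%) had a coding gene on the opposite strand whose start lay within 1000 bases upstream or overlapped by at most 300 bases, against 11.2% of the 15135 coding genes tested. Distances were taken between the outer ends of the genes in GENCODE M21, which for Mrpl36 and Mrpl32 are other starts than those of the windows shown. Such partners included Ndufs6 for Mrpl36, a subunit of respiratory complex I, Psma2 for Mrpl32, a proteasome subunit, and Sars2 for Mrps12, the mitochondrial seryl-tRNA synthetase.

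Libraries held from 25226357 to 28895657 counts in named genes, and the 78 genes took from 60191 to 87654 of them. Noc2l, the targeted gene, stood at 107 and 97.4 CPM (counts scaled to a common library total, with TMM factors) in E15.5 controls and at 95.6 and 91.6 in E15.5 knockouts. At E17.5 it stood at 105 and 121 in controls and at 85.4 and 86.9 in knockouts. The knockout libraries were the lower at both stages, and the fall passed the test at E17.5 (log2 fold change -0.39, SE 0.10, edgeR's quasi-likelihood test with Benjamini-Hochberg adjustment, adjusted p = 0.0062) but not at E15.5 (-0.12, SE 0.10, adjusted p = 0.33). Without the second E17.5 control library the adjusted p at E17.5 was 0.051. Counts over a whole transcript do not show which exons remain, so these values do not check the labels. The summed level of keratinocyte markers was lower in the knockout and that of other cells' markers higher. The summed level of 11 basal keratinocyte markers went from 7450 to 7910 CPM in E15.5 controls to 2250 to 2290 in knockouts, and from 7990 to 8010 to 1450 to 1480 at E17.5. The summed level of 10 dermal fibroblast markers went from 31400 to 33300 CPM to 77600 to 96000 at E15.5, and from 27200 to 31400 to 98300 to 104000 at E17.5. Suprabasal keratinocyte markers (10 genes) ran from 89100 to 94300 and from 6170 to 6440 CPM at E15.5, and from 43500 to 57200 and from 1180 to 1360 at E17.5, control and knockout in turn. Erythroid markers (9 genes) ran from 7600 to 10700 and from 42300 to 76300 CPM at E15.5, and from 3030 to 3290 and from 33800 to 35700 at E17.5. No marker of these lists was at 0 in every library, and the summed levels of endothelial, myeloid, melanocyte, skeletal muscle and nerve markers were also higher in every knockout library than in the controls of its stage. Single markers could go the other way: of 6 Schwann cell and neuron markers, 4 rose and 2 fell (Stmn2 and Tubb3) at both stages, and of 11 basal keratinocyte markers 10 fell and 1 rose at E17.5 (edgeR, adjusted p under 0.05). These shifts moved with every knockout comparison given here and their part in the ribosomal protein values was not tested. In bulk RNA, fewer cells of a type and less RNA per cell cannot be told apart.

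Levels per gene length were taken as CPM per kilobase in the 4 control libraries. The length was that of the longest GENCODE M21 transcript linked to the counted RefSeq transcript. The median was 20.4 over the 78 genes, 22.9 over the Mrpl and 20.0 over the Mrps genes. The highest was Mrpl52 (mL52, a protein with no bacterial counterpart) at 203.8, followed by Mrps21 (bS21m) at 140.4 and Mrpl54 (mL54) at 92.7. The lowest were Mrpl47 (uL29m, at the exit of the polypeptide tunnel) at 2.76, Mrps35 (mS35) at 4.44 and Mrps5 (uS5m) at 4.74. The span from lowest to highest was 73.8-fold. It depends on the lengths used, which were 418 and 405 bases for Mrpl52 and Mrps21. For Mrpl47, Mrps35 and Mrps5 they were 3364, 4162 and 4481 bases. Mrpl52 stood at 83.8 and 73.3 CPM in E15.5 controls, 71.2 and 74.0 in E15.5 knockouts, 69.0 and 115 in E17.5 controls and 96.0 and 78.3 in E17.5 knockouts. These groups overlapped at both stages, and the second E17.5 control was the highest of the 8.

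The summed level of both subunits was lower in every knockout library than in every control library of its stage. The Mrpl genes summed to 1719 and 1677 CPM in E15.5 controls and to 1489 and 1461 in E15.5 knockouts. They summed to 1744 and 1909 CPM in E17.5 controls and to 1551 and 1592 in E17.5 knockouts. The groups did not overlap, and the knockout mean was lower by 13.1% at E15.5 (1698 ± 29.7 against 1475 ± 19.8, SD, n = 2) and by 13.9% at E17.5 (1826 ± 117 against 1572 ± 29.0, SD, n = 2). The Mrps genes summed to 824.3 and 820.9 CPM in E15.5 controls, 738.0 and 739.0 in E15.5 knockouts, 835.4 and 904.3 in E17.5 controls and 757.6 and 787.0 in E17.5 knockouts. The knockout mean was lower by 10.2% and 11.2%, again with no overlap.

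The ratio of summed Mrpl to summed Mrps level was 2.09 and 2.04 in E15.5 controls, 2.02 and 1.98 in E15.5 knockouts, 2.09 and 2.11 in E17.5 controls and 2.05 and 2.02 in E17.5 knockouts. The knockout ratios lay below the control ratios of their stage without overlap, by a small margin that was not tested. With genes placed by structure the mean ratio at E17.5 was 2.38 in controls and 2.36 in knockouts, and there the libraries overlapped.

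**Figure D1:**
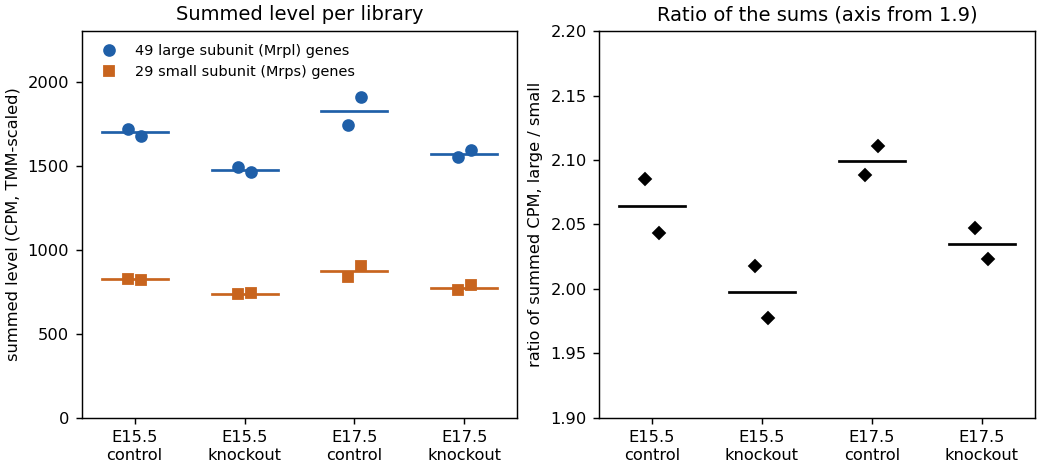
Left, summed level of the 49 Mrpl genes (circles) and the 29 Mrps genes (squares) in each library, in CPM on TMM-scaled totals, for the 4 groups; bars are means of 2 libraries. Right, the ratio of the sums, on an axis that starts at 1.9. Both sums are lower in each knockout library than in each control library of its stage, and the ratios all lie between 1.98 and 2.11.

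At E15.5, 16 of the 78 genes fell in the knockout and 0 rose (edgeR's quasi-likelihood test, Benjamini-Hochberg adjusted p under 0.05 over 16342 genes). Of all genes tested, 22.3% fell and 23.2% rose. The 20.5% of ribosomal protein genes that fell was therefore close to the share of all genes, while none was among the genes that rose. At an unadjusted p under 0.05, 22 fell and 0 rose, and DESeq2 and limma-voom called 13 and 14 fallen and 0 risen. The shares of all genes under these other rules were not counted. The median log2 fold change was -0.17 (a level lower by 11.2%), against 0.00 for all genes, and values ran from -0.61 to 0.16. The fold change lay below 0 for 69 genes (88.5%), against 50.3% of all genes. Every knockout library was below every control library for 46 genes (59.0%, against 37.3% of all genes), and every one was above for 3 (3.85%, against 37.1%), which were Mrpl27, Mrpl48 and Mrps31. By subunit, 12 of 49 Mrpl genes fell (24.5%, median -0.17) and 4 of 29 Mrps genes fell (13.8%, median -0.17). The count of 16 became 8, 4, 8 and 6 when the first or second control or the first or second knockout library of E15.5 was left out, and 6 with upper-quartile scaling.

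Among large subunit proteins with a bacterial homologue, the widest falls at E15.5 were those of Mrpl14 and Mrpl36. Mrpl14 (uL14m, which lies at the face that meets the small subunit; gene at chr17:45686322-45698495 in GENCODE M21, mm10) stood at 37.1 and 39.4 CPM in controls and at 26.9 and 23.2 in knockouts. Its knockout libraries were well below its controls, by a log2 fold change of -0.61 (SE 0.13, edgeR adjusted p = 0.0028). Mrpl36 (bL36m, whose bacterial homologue binds zinc; chr13:73328513-73332178), whose window holds the YY1 match shown above, stood at 27.4 and 30.1 CPM in controls and at 20.1 and 17.8 in knockouts. Its groups did not overlap, and it fell by 0.60 on the log2 scale (SE 0.12, edgeR adjusted p = 0.0016). The calls of these 2 genes at E15.5 held under all 18 alternatives run, and those of the other 14 did not hold under at least 1.

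Among large subunit proteins gained in mitochondria, Mrpl44 (mL44, a protein with a fold like that of RNase III, mutated in human cardiomyopathy) stood at 16.5 and 16.9 CPM in E15.5 controls and at 10.6 and 12.5 in knockouts. Its libraries were low in the knockout with no overlap (-0.53, SE 0.17, edgeR adjusted p = 0.025). Mrpl45 (mL45, which anchors the ribosome to the inner membrane beside the tunnel exit) stood at 38.5 and 40.4 CPM in controls and at 26.9 and 31.3 in knockouts (-0.44, SE 0.12, edgeR adjusted p = 0.0089). Mrpl57 (mL63) stood at 33.3 and 28.9 in controls and at 22.3 and 23.0 in knockouts, also without overlap (-0.46, SE 0.15, edgeR adjusted p = 0.027). Mrpl54, the third highest per length, fell as well (-0.37, SE 0.10, edgeR adjusted p = 0.012), and its 4 libraries were 52.6 and 59.0 CPM in controls and 44.0 and 42.6 in knockouts.

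In the small subunit, Mrps14 (uS14m, a protein of the head of the subunit) stood at 20.0 and 18.6 CPM in E15.5 controls and at 15.3 and 12.5 in knockouts (-0.48, SE 0.15, edgeR adjusted p = 0.021). Mrps22 (mS22, a protein with no bacterial counterpart that is mutated in a human mitochondrial disease), whose promoter holds the ETS core shown above, stood at 23.7 and 26.8 CPM in controls and at 18.6 and 17.8 in knockouts. The groups of both genes were apart, and Mrps22 fell by 0.47 on the log2 scale (SE 0.14, edgeR adjusted p = 0.016). Mrps26 (mS26) was near the threshold (-0.43, SE 0.16, edgeR adjusted p = 0.047). Its call was lost in 12 of the 18 alternatives, among them limma-voom (0.052) and library totals alone (0.052). The other member of the small subunit that fell was Mrps10 (uS10m, -0.41, SE 0.15, edgeR adjusted p = 0.046), and its call was lost in 14 of the 18 alternatives.

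At E17.5, 21 of the 78 genes fell in the knockout and 0 rose (edgeR, the same adjustment), against 26.7% of all genes fallen and 26.7% risen. The share that fell, 26.9%, was again that of all genes, with no gene among the risen. At an unadjusted p under 0.05, 27 fell and 0 rose, and DESeq2 and limma-voom called 16 and 23 fallen and 0 risen. Here too, the shares of all genes under these rules were not counted. The median log2 fold change was -0.22 (lower by 14.2%), against -0.02 for all genes, with values from -0.54 to 0.16 and 69 genes below 0. Every knockout library lay below every control library for 48 genes (61.5%, against 39.7% of all genes), and above for 0 (against 38.4%). By subunit, 15 of 49 Mrpl genes fell (30.6%, median -0.22) and 6 of 29 Mrps genes fell (20.7%, median -0.23). The count of 21 became 10 without the second E17.5 control library, 8 without the first E17.5 knockout library and 13 with upper-quartile scaling. With library totals alone it was 50, but there the median of all genes was itself -0.23, so relative to it the Mrpl median of -0.43 and the Mrps median of -0.44 were close to those given.

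**Figure D2:**
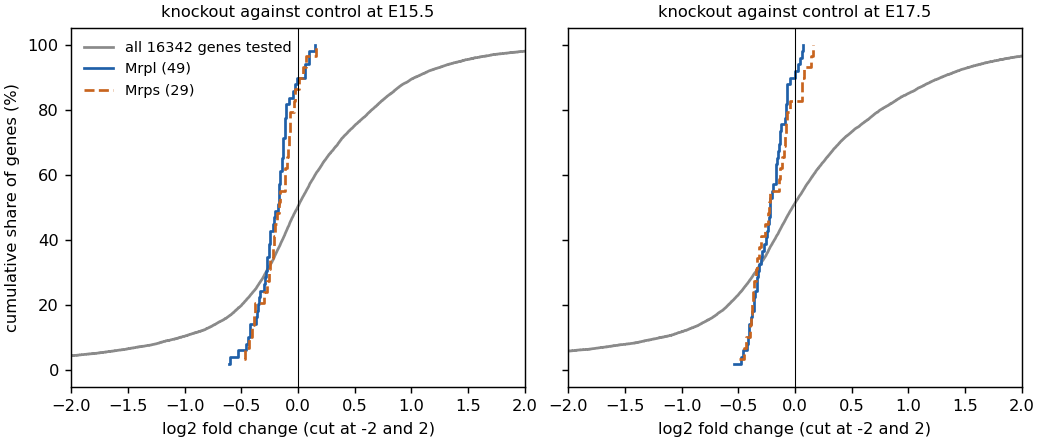
Cumulative share of genes (%) by log2 fold change of knockout against control at E15.5 (left) and E17.5 (right), for all 16342 genes tested (grey), the 49 Mrpl genes (solid blue) and the 29 Mrps genes (dashed orange). The ribosomal protein genes fall in a narrow band mostly just below 0, from -0.61 to 0.16 at E15.5 and from -0.54 to 0.16 at E17.5, while the curve of all genes is far wider.

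Proteins with a bacterial homologue made up most of the genes that fell at E17.5: 18 of 46 (39.1%, median -0.28), against 3 of 31 proteins gained in mitochondria (9.68%, median -0.15). At E15.5 the same classes gave 9 of 46 (19.6%, median -0.19) and 7 of 31 (22.6%, median -0.16). Mrps18a and Mrps18b, paralogues of bacterial S18, were placed in the second class as mL66 and mS40, and neither was called at either stage. The difference between the classes was not tested. Mrpl36 was the widest fall at E17.5, from 33.5 and 34.2 CPM in controls to 22.7 and 23.8 in knockouts (-0.54, SE 0.12, edgeR adjusted p = 0.0023). Both knockout libraries were below both controls. Mrpl19 (bL19m, which in bacteria takes part in a bridge between the subunits) stood at 27.2 and 28.4 CPM in controls and at 20.7 and 19.3 in knockouts (-0.48, SE 0.12, edgeR adjusted p = 0.0052). Mrpl13 (uL13m) stood at 74.5 and 72.6 CPM in controls and at 53.7 and 56.8 in knockouts, without overlap (-0.41, SE 0.09, edgeR adjusted p = 0.0032). Mrpl20 (bL20m, needed early in assembly of the bacterial large subunit) stood at 36.5 and 44.6 CPM in controls and at 25.9 and 33.2 in knockouts. Its groups were apart by a few CPM (-0.46, SE 0.14, edgeR adjusted p = 0.019), and the call was lost without the second control (adjusted p = 0.14). Mrpl35 (bL35m) fell by 0.42 (SE 0.12, edgeR adjusted p = 0.010).

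Mrpl49 (mL49) was the widest fall called among the large subunit proteins gained in mitochondria, from 54.7 and 50.2 CPM in E17.5 controls to 39.9 and 39.2 in knockouts (-0.41, SE 0.10, edgeR adjusted p = 0.0048). In the small subunit, Mrps24 (uS3m, part of the channel where mRNA enters) stood at 24.1 and 28.9 CPM in controls and at 17.1 and 22.4 in knockouts (-0.43, SE 0.16, edgeR adjusted p = 0.038). Its call was lost in 6 of the 18 alternatives. The calls of Mrpl13, Mrpl19, Mrpl24, Mrpl36 and Mrpl49 at E17.5 held under all 18 alternatives run. The other 16 were lost under at least 1, among them each of the 6 Mrps genes.

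**Figure D3:**
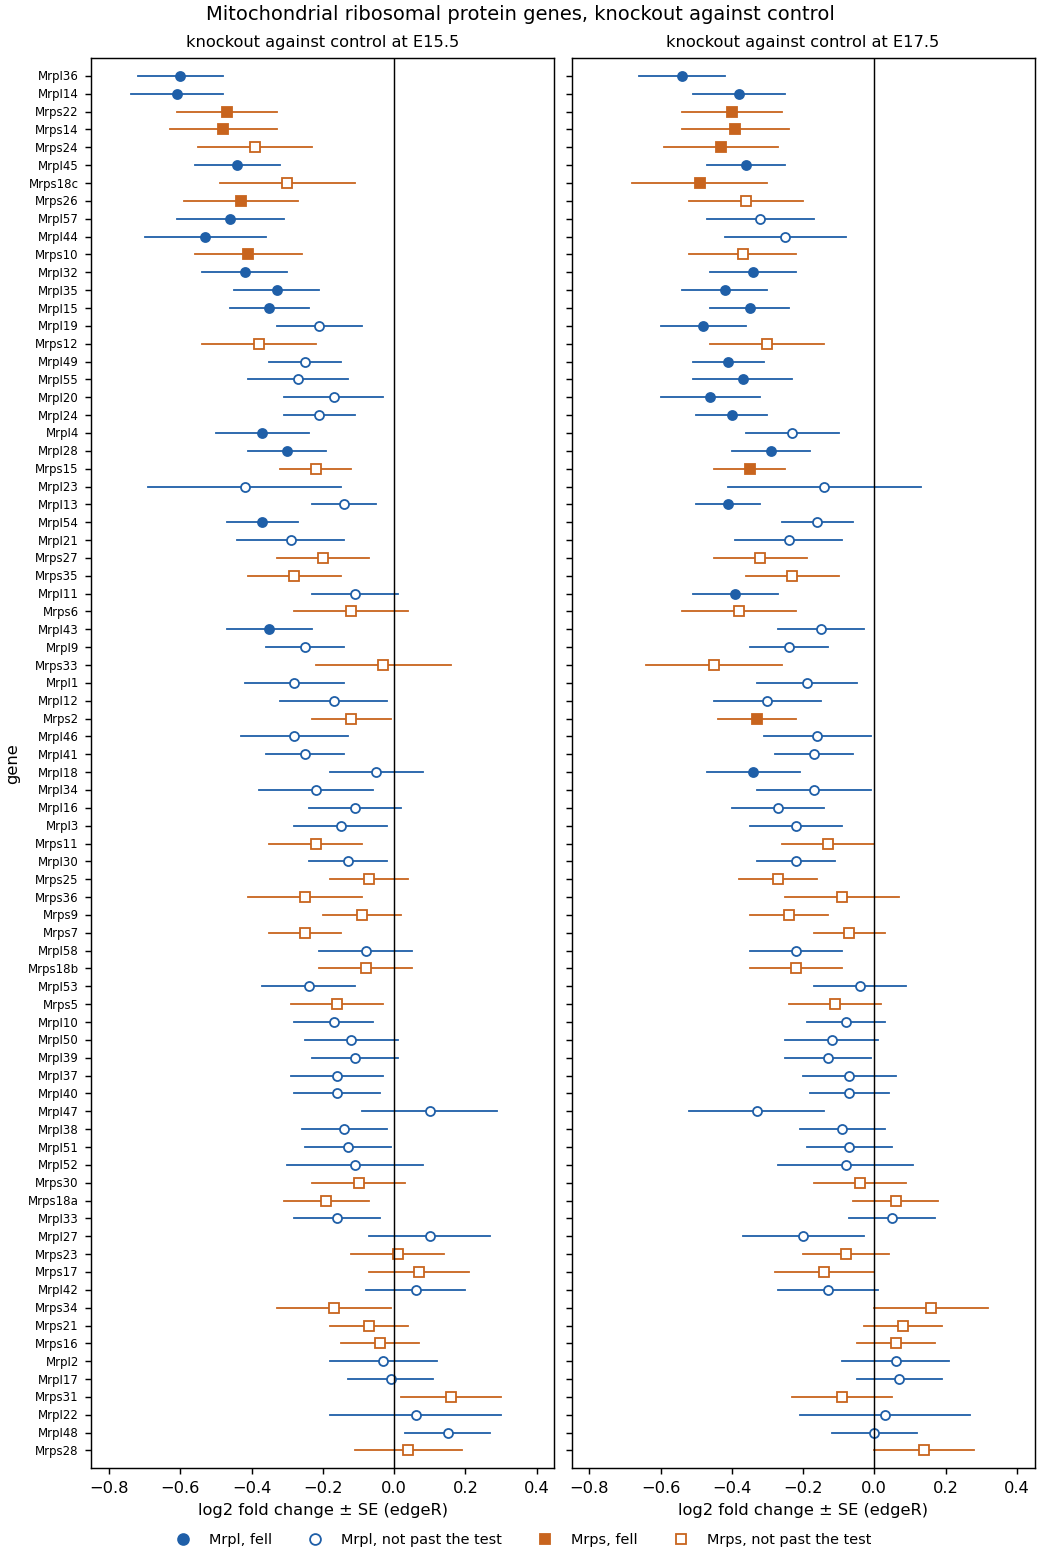
Log2 fold change with its SE from edgeR for each of the 78 genes, knockout against control at E15.5 (left) and E17.5 (right), ordered by the mean of both. Circles are Mrpl and squares Mrps genes, and filled marks passed an adjusted p of 0.05. All filled marks lie left of 0, and 69 of 78 marks lie left of 0 in each panel.

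Genes that fell at both stages numbered 9: Mrpl14, Mrpl15, Mrpl28, Mrpl32, Mrpl35, Mrpl36 and Mrpl45 of the large subunit and Mrps14 and Mrps22 of the small. They were 56.2% of the 16 and 42.9% of the 21, and among all genes the corresponding shares were 80.6% and 67.2% (18.0% of all genes fell at both). The comparisons share no library, though the fit gives them a common estimate of the spread. Of the 9 genes, only Mrpl36 kept its call at both stages under all 18 alternatives, and the E17.5 call of Mrps14 was lost in 9. Mrpl32 (bL32m), which must be cut by the m-AAA protease in mouse mitochondria before it is built into the subunit, stood at 23.3 and 26.4 CPM in E15.5 controls and at 18.6 and 18.4 in knockouts. At E17.5 it stood at 25.6 and 24.3 in controls and at 19.8 and 19.7 in knockouts. The knockout libraries of both stages were nearly level and below all 4 controls (-0.42, SE 0.12, edgeR adjusted p = 0.013 at E15.5, and -0.34, SE 0.12, adjusted p = 0.032 at E17.5). Its promoter is the window with 4 NRF1 cores, and no other window of a gene that fell at either stage held that core. Mrpl15 (uL15m) stood at 48.0 and 44.9 CPM in E15.5 controls, 33.6 and 39.5 in E15.5 knockouts, 41.6 and 40.0 in E17.5 controls and 31.8 and 32.2 in E17.5 knockouts. It too was lower in all 4 knockout libraries than in all 4 controls, by 0.35 on the log2 scale at both stages (SE 0.11, edgeR adjusted p = 0.026 and 0.021). Mrpl28 (bL28m) changed by -0.30 and -0.29 (SE 0.11, edgeR adjusted p = 0.036 and 0.038).

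Falls called at E15.5 alone were those of Mrpl4, Mrpl43, Mrpl44, Mrpl54, Mrpl57, Mrps10 and Mrps26. Those called at E17.5 alone were Mrpl11, Mrpl13, Mrpl18, Mrpl19, Mrpl20, Mrpl24, Mrpl49, Mrpl55, Mrps2, Mrps15, Mrps18c and Mrps24. A call at a single stage does not show that the effects differ. In the test of the difference between the effects (E17.5 minus E15.5), 0 of the 78 genes passed in either direction, against 1.88% of all genes with a higher and 2.47% with a lower effect at E17.5. None had an unadjusted p under 0.05 in edgeR, and DESeq2 and limma-voom called 0 as well. The differences had a median of 0.04 and ran from -0.43 to 0.33, with a median SE of 0.18.

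**Figure D4:**
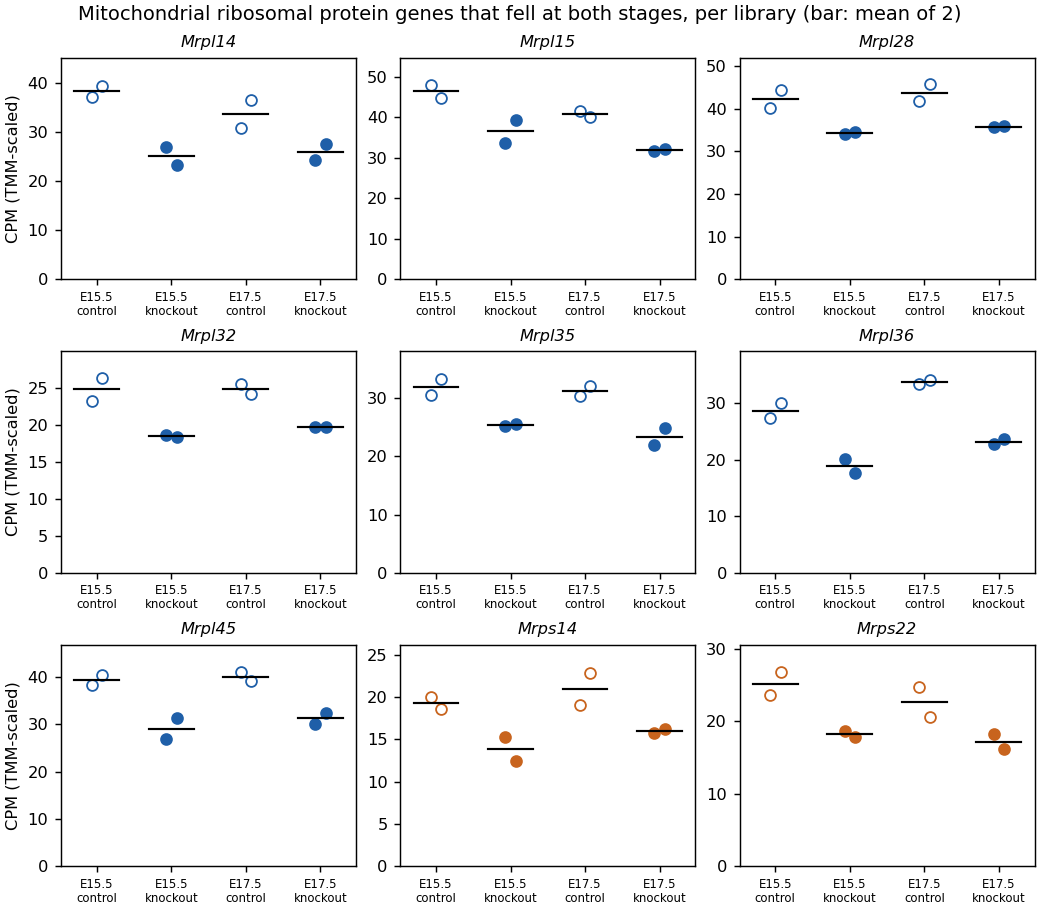
Level in each library (CPM on TMM-scaled totals, axes from 0) of the 9 genes that fell at both stages. Open circles are control and filled circles knockout libraries, and bars are means of 2. In each panel both knockout points of a stage lie below both control points of that stage. The genes were chosen by their calls on these same libraries, so that separation is no further support.

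Between the stages, no gene of the 78 passed the test. In controls, 0 of 78 rose and 0 fell from E15.5 to E17.5 (edgeR, against 3.15% and 7.70% of all genes), with 8 higher and 0 lower at an unadjusted p under 0.05 and 0 called by DESeq2 or limma-voom. The median log2 fold change was 0.08. The 8 were Mrpl11, Mrpl12, Mrpl13, Mrpl18, Mrpl20, Mrpl48, Mrpl58 and Mrps6, with values from 0.27 to 0.39. In knockouts, 0 rose and 0 fell (against 6.19% and 6.91% of all genes), 4 were higher at an unadjusted p under 0.05 and 1 was called by DESeq2, with a median of 0.08. The widest of the 4 was Mrps34 (0.51, SE 0.16, edgeR adjusted p = 0.061). Shares of all genes at an unadjusted p were not counted, so the 8 and the 4 cannot be set against them.

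Genes whose symbol and place in the ribosome differ, or which share a family, were looked at singly. Mrps18a, Mrps18b and Mrps18c are paralogues of bacterial S18, and in the mammalian ribosome the first is the large subunit protein mL66, the second mS40 and the third bS18m. Mrps18a stood at 41.7 and 38.0 CPM in E15.5 controls, 31.4 and 38.5 in E15.5 knockouts, 39.1 and 37.9 in E17.5 controls and 41.9 and 38.5 in E17.5 knockouts, and its groups overlapped at both stages. Mrps18b had log2 fold changes of -0.08 (SE 0.13) and -0.22 (SE 0.13), neither past the test. Mrps18c stood at 17.1 and 18.9 CPM in E17.5 controls and at 12.3 and 13.3 in knockouts, and fell there (-0.49, SE 0.19, edgeR adjusted p = 0.044). Its call was lost in 8 of the 18 alternatives. At E15.5 its groups overlapped (-0.30, SE 0.19, adjusted p = 0.21). Mrps30, which is mL65 of the large subunit, had values of -0.10 and -0.04 (SE 0.13) with overlapping groups at both stages. Mrps36 is no ribosomal protein but KGD4, a part of the 2-oxoglutarate dehydrogenase complex, and its values of -0.25 and -0.09 (SE 0.16) did not pass. With genes placed by structure (51 large, 26 small), the counts of fallen genes were 12 and 4 at E15.5 and 15 and 6 at E17.5, as by symbol.

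Reads could not be assigned by strand with certainty, and 28 of the 78 genes overlap an exon of a gene on the opposite strand, among them Mrpl36 with Ndufs6 over 30 bases, Mrpl14 with Tmem63b over 106, Mrpl19 with Gcfc2 over 1962 and Mrpl43 with Twnk over 507. The 45 genes with no exon overlap on either strand gave 11 falls at E15.5 (24.4%, median -0.16) and 12 at E17.5 (26.7%, median -0.17), and 0 rises. Mrpl48 was represented by a transcript listed as non-coding, which held the larger count.

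Genes that act with the mitochondrial ribosome were read from 7 lists of 115 genes. Falls and rises are from edgeR at an adjusted p under 0.05 unless DESeq2 is named. The edgeR shares stand beside 22.3% of all genes fallen at E15.5 and 26.7% at E17.5, and a share near or below these is no more than that of all genes. For DESeq2 the share of all genes was not counted. Of 5 ribosomal proteins with other names, 1 fell at each stage and 0 rose: Aurkaip1 at E15.5 (-0.38, SE 0.13, adjusted p = 0.029) and Ptcd3, a pentatricopeptide repeat protein of the small subunit, at E17.5 (-0.32, SE 0.10, adjusted p = 0.022). Of 31 assembly and rRNA modification factors, 3 fell (9.68%) and 0 rose at E15.5 (median -0.26), and 11 fell (35.5%) and 1 rose at E17.5 (median -0.24). DESeq2 called 3 of them fallen at E15.5 and 9 at E17.5. Noa1, a GTPase of ribosome assembly, stood at 25.4 and 23.2 CPM in E15.5 controls, 17.1 and 15.8 in E15.5 knockouts, 24.5 and 24.8 in E17.5 controls and 16.2 and 17.2 in E17.5 knockouts. It fell by 0.56 on the log2 scale at both stages (SE 0.12, edgeR adjusted p = 0.0027 and 0.0022). Mpv17l2, a membrane protein needed for assembly, fell at both (-0.61 and -0.45, SE 0.14, edgeR adjusted p = 0.0044 and 0.017). Mettl17 fell at E17.5 (-0.86, SE 0.18, edgeR adjusted p = 0.0019). Mettl5 fell at both stages (-0.46 and -0.55), but it methylates the rRNA of the cytosolic ribosome. The gene that rose was Fastk, a mitochondrial RNA-binding protein (0.48, SE 0.11, edgeR adjusted p = 0.0033), which with library totals alone was no longer called (adjusted p = 0.058).

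Of 17 translation factors, 2 fell at E15.5 (11.8%) and 4 at E17.5 (23.5%), both shares below those of all genes, and 0 rose. DESeq2 called 2 and 3 of them fallen. Gfm2, which with the recycling factor splits the ribosome after termination, fell at both stages (-0.60 and -0.42, SE 0.12, edgeR adjusted p = 0.0016 and 0.011). Mrrf, the recycling factor itself, stood at 50.5 and 52.0 CPM in E15.5 controls and at 32.0 and 32.7 in E15.5 knockouts. At E17.5 it stood at 34.0 and 31.2 in controls and at 31.4 and 32.4 in knockouts. The E15.5 controls were thus apart from all other 6 libraries: Mrrf fell in the E15.5 knockout (-0.66, SE 0.10, edgeR adjusted p = 0.00032) and from E15.5 to E17.5 in controls (-0.65, SE 0.10, adjusted p = 0.0022), and the difference between the knockout effects passed the test (0.63, SE 0.15, adjusted p = 0.034). Of 20 aminoacyl-tRNA synthetases and amidotransferase subunits, 5 fell at E15.5 (25.0%) and 8 at E17.5 (40.0%) and 0 rose, with a median of -0.31 at both. DESeq2 called 5 of them fallen at each stage. Rars2 (for arginine) fell by 0.45 and 0.57 on the log2 scale (SE 0.12, edgeR adjusted p = 0.0092 and 0.0019).

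Of 13 genes for replication and transcription of mitochondrial DNA, 3 fell (23.1%) and 1 rose (7.69%, against 23.2% of all genes) at E15.5 (median -0.14). At E17.5, 3 fell (23.1%) and 0 rose (median -0.36). DESeq2 called 3 fallen at E15.5 and 2 at E17.5, and 0 risen at either stage. Polrmt, the mitochondrial RNA polymerase, fell at E15.5 (-0.51, SE 0.11, edgeR adjusted p = 0.0027) and not at E17.5 (-0.12, SE 0.11, adjusted p = 0.36), and the difference between these effects did not pass (adjusted p = 0.21). Twnk, the helicase that overlaps Mrpl43, fell at E17.5 (-0.65, SE 0.13, edgeR adjusted p = 0.0012). Of 15 proteins used as marks of mitochondrial mass, 6 fell at E15.5 (40.0%) and 7 at E17.5 (46.7%) and 0 rose, with medians of -0.24 and -0.26. DESeq2 called 5 of them fallen at each stage. Cs, citrate synthase, stood at 396 and 370 CPM in E15.5 controls and at 265 and 265 in knockouts (-0.53, SE 0.11, edgeR adjusted p = 0.0020), and at 405 and 374 against 349 and 310 at E17.5, which did not pass (adjusted p = 0.080). Tomm22, a receptor of the import pore, fell at both stages (-0.55 and -0.62, SE 0.12, edgeR adjusted p = 0.0034 and 0.0013).

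Of 11 regulators of mitochondrial genes, 1 fell (9.09%) and 0 rose at E15.5, and 3 fell (27.3%) and 2 rose at E17.5. DESeq2 called 2 fallen at each stage, with 0 risen at E15.5 and 2 at E17.5. Mycn, which like Myc activates genes of ribosome production and growth, stood at 23.6 and 17.8 CPM in E15.5 controls and at 4.55 and 5.35 in knockouts, and at 35.7 and 36.7 against 3.32 and 3.99 at E17.5. These were the widest changes of any gene in the 7 lists (-2.06, SE 0.17, edgeR adjusted p = 3.4e-06, and -3.31, SE 0.18, adjusted p = 6.4e-08), and they differed between the stages (-1.24, SE 0.25, adjusted p = 0.016). Myc fell at E17.5 (-0.54, SE 0.16, edgeR adjusted p = 0.016), a call lost without the first E17.5 knockout library (adjusted p = 0.13). Ppargc1a, a coactivator of mitochondrial biogenesis, rose at E17.5 (0.76, SE 0.21, edgeR adjusted p = 0.0091) from 5.76 and 4.75 CPM to 9.60 and 8.16. Nrf1, whose motif was searched above, changed by -0.06 at E15.5 and -0.31 at E17.5 (SE 0.12, edgeR adjusted p = 0.70 and 0.041).

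**Figure D5:**
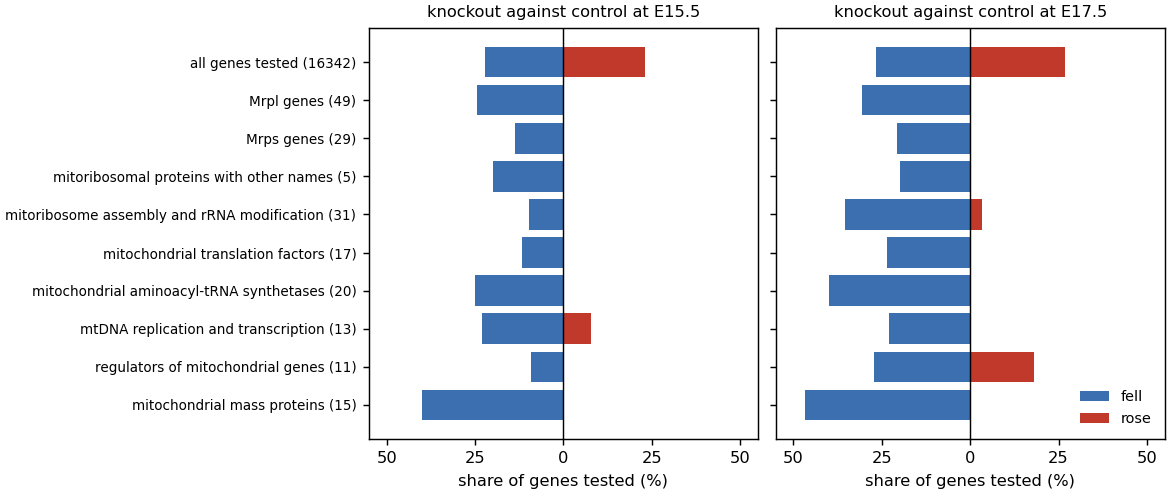
Share of genes (%) that fell (blue, left of 0) and rose (red, right of 0) in the knockout at E15.5 and E17.5, with an edgeR adjusted p under 0.05, for all genes tested, the Mrpl and Mrps genes and the 7 lists; the number of genes tested stands in brackets. All genes fell and rose in near-equal shares (22.3% and 23.2% at E15.5, 26.7% and 26.7% at E17.5), while the ribosomal protein genes and most lists show falls with few or 0 rises.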

How the data were processed

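Epidermal RNA of 8 libraries was measured by sequencing. Per the series design text, the authors aligned reads to mm10 with TopHat2 and counted them with HOMER, and the deposited values are raw counts, whole numbers for each RefSeq transcript. The strand setting and the treatment of multiply matching reads were not given in the sources used here. The counts held 30521 transcript rows, of which 781 were marked as further genomic copies of a transcript. Of the 30521 rows, 29908 were named by the RefSeq table of GRCm38.p6 and 182 by GENCODE M21, and 431 without a name (2.08% of counts) were left out. A gene was represented by its transcript with the largest total, so that shared exons were not counted more than once.

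Counts were tested with edgeR 4.0.16 (R 4.3.3; filterByExpr, TMM scaling, a quasi-likelihood fit with 1 mean per group on all 8 libraries, Benjamini-Hochberg over 16342 genes, threshold 0.05). SE was derived from the log2 fold change and its F statistic (size over root of F). Libraries of a group differed by more than counting error. The procedure was also run on simulated counts in which few genes changed, unlike in these data, so that run does not check the calls given here. Alternatives were DESeq2 1.42.0, limma-voom (limma 3.58.1), other scalings and filters, summed transcripts, a replicate block and leaving out each library. The genes named were, per knockout comparison, the 8 called members with the largest change, the highest and lowest per length, the Mrps18 family, Mrps30 and Mrps36, and up to 3 called genes a list; other genes that fell, those called at an unadjusted p, Mettl5's role, Nrf1 and the non-overlapping 3 at E15.5 were named after their values were seen. The members and lists were chosen with earlier results of these data known.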

Additional observations from a re-analysis of the deposited data

Results flagged for a closer look

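In 2 genes of the lists the knockout effect differed between the stages by the test of the difference itself (edgeR's quasi-likelihood test with Benjamini-Hochberg adjustment over all genes). For Mrrf the E17.5 effect was higher than the E15.5 effect by 0.63 on the log2 scale (SE 0.15, adjusted p = 0.034). The 2 E15.5 control libraries (50.5 and 52.0 CPM) stood apart from the other 6, which lay between 31.2 and 34.0. For Mycn the difference was -1.24 (SE 0.25, adjusted p = 0.016), with a lower level in every knockout library than in every control library. Neither held in every fit: leaving out single libraries took the adjusted p of Mrrf to 0.11 and that of Mycn to 0.07 at most.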

How the results depend on the processing

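The fold change lay below 0 for 59 to 70 of the 78 genes at E15.5 and for 60 to 78 at E17.5 over all alternatives, and no gene rose in either knockout comparison under any of them. The count of fallen genes was less stable. At E15.5 it was 16, with 6 under upper-quartile scaling and from 4 to 16 when single libraries were left out, the lowest without the second E15.5 control. At E17.5 it was 21, with 50 under library totals alone, 13 under upper-quartile scaling and from 8 to 22 when single libraries were left out, the lowest without the first E17.5 knockout. Library totals alone moved the median of all genes to -0.23 at E17.5, and upper-quartile scaling moved it to 0.09 at E15.5. From E15.5 to E17.5 in controls, where 0 rose, 9 rose with library totals alone, 2 with upper-quartile scaling and from 0 to 1 with a library left out. In knockouts, 1 rose in DESeq2, 1 with no filter, 1 with only the groups compared and from 0 to 1 with a library left out. The cause was not tested. The ratio of the summed levels, in the order E15.5 control, E15.5 knockout, E17.5 control and E17.5 knockout, was 1.95, 1.89, 1.96 and 1.92 with transcripts summed and 2.37, 2.29, 2.38 and 2.36 with genes placed by structure. With the replicate number as a block, 13 genes fell at E15.5 and 20 at E17.5. Deviations of same-numbered libraries correlated between -0.07 and 0.04 over all genes tested, so no pairing by number was seen. A pairing that touched few genes would not show in these values. With 2 libraries a group, 1 library can decide a call, and a median SE of 0.13 leaves falls of the size of the median below the threshold for most genes.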
